A study of Homo sapiens with 24 samples.

Results

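The comparison described here is of SNU-449 cells exposed to galunisertib alone with untreated control cells of the same line, 3 arrays against 3, chosen by their sample labels out of 24 arrays in the series. SNU-449 is an established line from a human hepatocellular carcinoma (HCC) with a mesenchymal-like phenotype. All cultures were serum-starved overnight. Control cells then received no treatment, and treated cells received galunisertib (LY2157299) at 10 µM for 16 h, in 3 independent culture experiments. The same line was also profiled with TGFβ1 at 1 ng/mL, alone or with 10 µM galunisertib (3 arrays each, 16 h), and the epithelial-like HCC line PLC/PRF/5 was given the same 4 conditions. RNA was hybridised to one-colour Agilent SurePrint G3 arrays. The question addressed is which genes change with galunisertib in SNU-449 cells to which no TGFβ was added.

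TGFβ is secreted in a latent form and, once released, brings together type II and type I serine/threonine kinase receptors on the cell surface. The type I receptor, TGFBR1 (ALK5), phosphorylates SMAD2 and SMAD3, which move to the nucleus with SMAD4 and act on target genes, among them genes whose products damp the pathway. Galunisertib, a small-molecule inhibitor, blocks the kinase activity of TGFBR1. The authors state that it also inhibits the type I receptors of activin and nodal. On which of these receptors a change depends was not tested. In HCC the pathway is known both for restraining growth and for driving mesenchymal features, depending on the tumour.

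Signals are given as the log2 of the array intensity divided by the 75th percentile of that array, so 0 is the level of the 75th percentile, and values below a floor of -4.13 were set to it. The 75th percentile lay between 198.6 and 247.0 intensity units on the control arrays and between 194.8 and 219.2 on the galunisertib arrays. Between 42.7% and 46.7% of probes were well above background on control arrays, and between 41.6% and 42.4% on galunisertib arrays. Across genes, control arrays correlated with each other at 0.990 to 0.992, galunisertib arrays at 0.977 to 0.981, and arrays of different groups at 0.972 to 0.983. Each group held the same position on all 3 slides, so that position and treatment cannot be told apart. In RNA from whole cultures, fewer cells of a kind and less RNA per cell cannot be told apart either. The number of arrays limits the precision throughout.

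The labelled line was checked against its markers. The mesenchymal gene *VIM* had a log2 signal of 8.55 to 8.95 on control arrays and *CDH2*, which encodes N-cadherin, of 4.93 to 5.17. *SPARC* stood at 4.92 to 5.21 and *ZEB1* at 2.20 to 2.46. The mesenchymal gene *FN1* was lower, at -4.03 to -3.46, and well above background on only 1 of the 3 control arrays. Its mean on PLC/PRF/5 control arrays was 2.55. *PRRX1* and *CDH11* were well above background on no array of either SNU-449 group. Of 30 epithelial genes 18 were well above background on all 6 arrays, among them the keratin genes *KRT7* and *KRT18* with control signals of 7.98 to 8.38 and 6.05 to 6.34, whereas the epithelial surface gene *EPCAM* was above it on 0 of 6. Epithelial and mesenchymal genes were thus each present in part. Of the hepatocyte markers, *APOB* was above background on 0 of 6 arrays and *ALB* on 2 of 6, both with galunisertib, whereas *AFP*, *APOA1*, *TTR* and *SERPINA1* were above it on all 6. On control arrays *AFP* was at -1.34 to -1.21, and *APOA1*, *TTR* and *SERPINA1* lay between -3.29 and -2.27, near the floor. Means on PLC/PRF/5 control arrays were 3.85 for *AFP*, 4.82 for *APOA1*, 4.43 for *TTR* and 8.78 for *SERPINA1*. These markers of hepatocytes were thus present in part and at low signal. Of 8 markers of blood and endothelial cells on the array, 4 were above background on at least 1 array, with *CD14* and *VWF* on all 6, *PTPRC* on 5 and *CDH5* on the 3 control arrays. Their log2 signals stayed between the floor of -4.13 and -2.22. *CD3E* and *PECAM1* were above background on no array, and the summed signal of the 8 was 0.677 to 0.787 times the 75th percentile on control arrays and 0.645 to 0.870 times on galunisertib arrays.

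With galunisertib alone, genes of the TGFβ feedback and target lists fell, and other genes rose in numbers that depended on the processing. Of 16101 genes tested, 184 (1.14%) passed a fold change above 2 with P below 0.001 in limma, 81 higher (0.503%) and 103 lower (0.640%) with galunisertib. The same thresholds gave 50 higher and 155 lower genes without scaling of the arrays, and 29 higher and 91 lower with normexp background correction. About 16.1 genes would pass that P if none differed. With the Benjamini-Hochberg adjusted p below 0.05 and no limit on the fold, 1196 genes passed (7.43%), of which 861 rose (5.35%) and 335 fell (2.08%). The smaller rises depended on the scaling of the arrays, since without any scaling 99 genes rose and 235 fell, and with median scaling 116 rose and 122 fell. Leaving out control replicate 1, 2 or 3 left 641, 691 or 793 genes past the adjusted p, and leaving out galunisertib replicate 1 or 3 left 779 or 731, as compared to 1196 with all arrays. With only the 3 control and 3 galunisertib arrays in the fit, 219 genes passed the adjusted p (109 higher, 110 lower). Calls lost in that fit included those of *CDH1*, *TGFB1*, *HLF*, *KRT7*, *ONECUT1*, *DDIT4*, *UCN2* and *ATRAID*. Across all genes tested the median change was 0.09 on the log2 scale. The words rose and fell are used below for genes past the adjusted p of 0.05.

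The falls with the greatest fold change, *IL11* and *FOXS1*, were of known TGFβ target genes, and feedback inhibitors of the pathway such as *PMEPA1* and *SKIL* fell as well. The rises were smaller and included *SERPINF1* and the epithelial cadherin gene *CDH1*. The plot of every array against the control mean shows 24 genes selected as markers or as the largest measured changes.

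**Figure D1:**
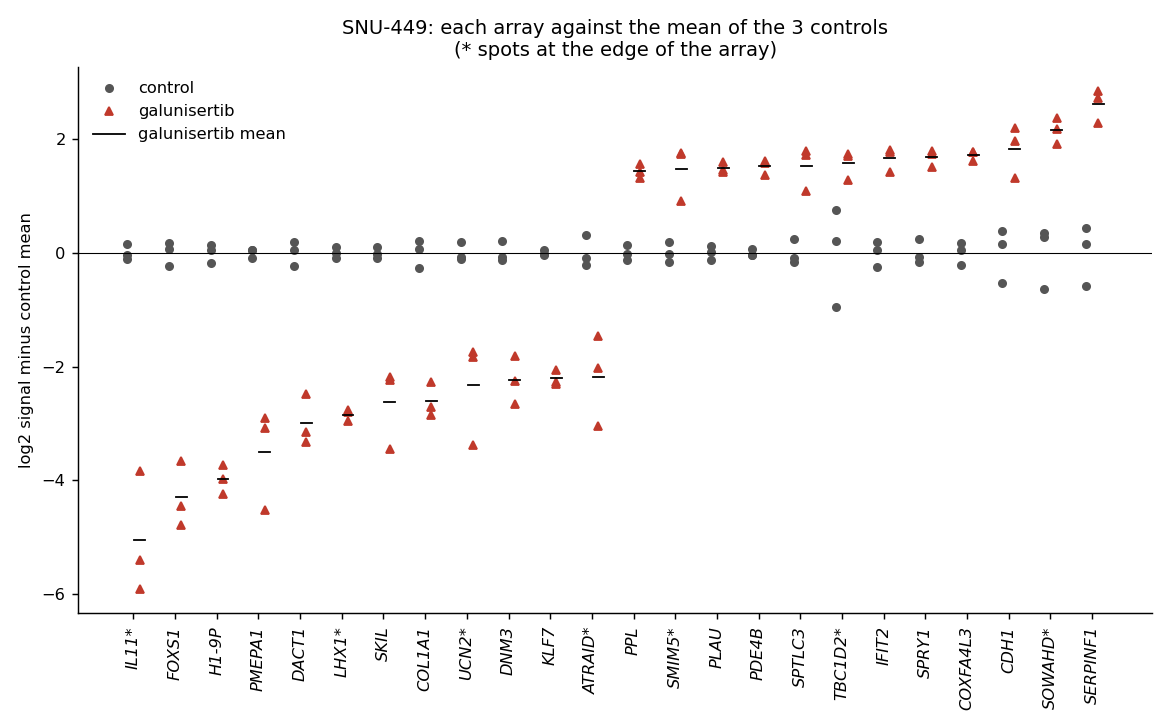
Log2 signal of each array minus the mean of the 3 control arrays, for 24 genes in SNU-449. Grey circles are control arrays, red triangles are galunisertib arrays and the black bar is their mean. In all 24 genes the 3 galunisertib arrays lie on one side of the 3 control arrays, which the choice of the genes required for 23 of them. The mean change runs from -5.04 for *IL11* to 2.61 for *SERPINF1*.

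Promoters of 4 genes that fell are shown with 300 bases around a transcription start, because *IL11* had the largest fall and the others are feedback genes that fell and whose windows hold a motif. The windows of the other feedback genes that fell, *FSTL3* and *SMAD6*, hold neither motif. The windows run from 250 bases before the start to 50 bases after it, 5′ to 3′ on the strand of the gene, and come from RefSeq on GRCh38.p14. Capitals mark the SMAD-binding box, which reads CAGAC on one strand and GTCTG on the other, and the AP-1 motif, which reads TGAGTCA on one strand and TGACTCA on the other. The motifs do not overlap one another in these windows. The *IL11* window is chr19:55370414-55370713 on the minus strand and the *SKIL* window is chr3:170357465-170357764 on the plus strand. *PMEPA1* has 4 windows, of which chr20:57709966-57710265 on the minus strand is shown, and *SMAD7* has 3, of which chr18:48950916-48951215 on the minus strand is shown, in both cases the window with the most matches.
IL11: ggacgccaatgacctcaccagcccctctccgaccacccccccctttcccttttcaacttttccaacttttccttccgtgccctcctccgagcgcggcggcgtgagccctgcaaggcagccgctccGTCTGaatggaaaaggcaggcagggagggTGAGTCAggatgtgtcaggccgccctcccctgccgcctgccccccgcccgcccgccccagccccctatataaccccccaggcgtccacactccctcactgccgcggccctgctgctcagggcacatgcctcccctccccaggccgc
SKIL: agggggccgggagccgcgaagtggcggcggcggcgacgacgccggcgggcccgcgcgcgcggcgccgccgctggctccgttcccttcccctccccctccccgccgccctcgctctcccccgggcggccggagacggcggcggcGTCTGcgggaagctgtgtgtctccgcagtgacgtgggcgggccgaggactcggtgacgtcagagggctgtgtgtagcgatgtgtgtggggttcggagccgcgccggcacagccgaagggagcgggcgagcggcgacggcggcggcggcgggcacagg
PMEPA1: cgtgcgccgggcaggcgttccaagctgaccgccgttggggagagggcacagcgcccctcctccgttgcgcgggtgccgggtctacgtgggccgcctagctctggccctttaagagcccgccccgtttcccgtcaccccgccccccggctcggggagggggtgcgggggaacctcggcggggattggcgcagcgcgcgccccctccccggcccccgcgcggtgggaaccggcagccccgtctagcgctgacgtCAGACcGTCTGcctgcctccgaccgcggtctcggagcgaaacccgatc
SMAD7: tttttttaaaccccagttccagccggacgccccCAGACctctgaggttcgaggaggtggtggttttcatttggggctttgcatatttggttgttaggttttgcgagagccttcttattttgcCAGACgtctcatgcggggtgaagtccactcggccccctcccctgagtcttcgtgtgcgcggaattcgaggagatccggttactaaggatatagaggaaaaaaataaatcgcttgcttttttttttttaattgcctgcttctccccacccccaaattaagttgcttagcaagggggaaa

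In the *IL11* window the SMAD box began 125 bases and the AP-1 motif 96 bases before the start. In the *SKIL* window a SMAD box also lay before the start, and in the *SMAD7* window there were boxes 217 and 128 bases before it. The *PMEPA1* window held both matches after the start, at bases 3 and 9. Of the 14 genes of the feedback and target lists that fell, 10 had windows, and 6 of the 10 genes held a SMAD box in at least 1 window while 1 gene held the AP-1 motif. Among all 27305 genes with windows, 50% held the SMAD box and 6.05% the AP-1 motif, so the share with a SMAD box was near that of all genes. By window the counts were 9 and 1 of 15, of which *PMEPA1* and *SMAD7* supply 7, beside 45.3% and 4.95% of all 35116 windows. The match is a description of letters and not of binding.

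Feedback inhibitors of the TGFβ pathway were lower with galunisertib. *PMEPA1*, whose product keeps receptor-activated SMADs from the receptor, gave 6.05, 6.17 and 6.17 on the control arrays and 3.05, 3.23 and 1.62 on the galunisertib arrays. All galunisertib arrays lay below all control arrays, an arrangement found for 7.01% of all genes tested. The fall was 3.50 ± 0.37 on the log2 scale (SE, n = 3 arrays a group), or 11.3-fold, with an adjusted p of 0.000661 in limma. A second probe of the gene fell by 2.22.

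*SKIL*, which encodes the SMAD co-repressor SnoN, gave -0.77, -0.70 and -0.57 on control arrays and -4.13, -2.92 and -2.86 on galunisertib arrays, the first of these at the floor. The groups did not overlap, and 2 of 3 galunisertib arrays were well above background. The difference was -2.62 ± 0.30 (adjusted p = 0.00106), and -1.25 with normexp background correction. *SMAD7*, the inhibitory SMAD that blocks the type I receptor, gave 3.06, 3.15 and 3.16 without galunisertib and 1.34, 1.01 and 1.34 with it. It fell by 1.90 ± 0.13 (3.72-fold, adjusted p = 0.000149) on a spot at the edge of the array, and the groups were far apart.

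*FSTL3*, a secreted antagonist of activin, fell by 1.74 ± 0.20 (adjusted p = 0.00106), and the other inhibitory SMAD, *SMAD6*, fell by 0.43 ± 0.11 (adjusted p = 0.0397). The *SMAD6* call was lost when any 1 of the 6 arrays was left out. In total 5 of 14 feedback genes fell and 0 rose, as compared to 2.08% and 5.35% of all genes, and their median change was -0.37 beside 0.09 for all genes tested. Feedback genes with no call included *BAMBI*, a pseudoreceptor, at 0.35 ± 0.10 (adjusted p = 0.0608), *SKI* at -0.14 ± 0.13 (adjusted p = 0.556) and *LDLRAD4* at -0.83 ± 0.27 (adjusted p = 0.0953). The values within the list thus ranged widely.

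Genes in the list of ligands and related binding proteins also changed. *LTBP2*, a member of the latent TGFβ-binding protein family, fell by 1.24 ± 0.10 (2.36-fold, adjusted p = 0.000309), from 2.09, 2.28 and 2.40 to 0.95, 1.07 and 1.04. *LRRC32*, the surface anchor of latent TGFβ also named GARP, stood well above background on the 3 control arrays but on 0 galunisertib arrays. It was at least 4.01-fold lower (adjusted p = 0.00276) with the scaling used here, and its change was -0.66 with normexp background correction. For such a bound the dim group was given, array by array, the faintest signal still classed as well above background, unless the probe itself was brighter.

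*TGFB1* itself gave 1.62, 1.58 and 1.62 on control arrays and 0.75, -0.35 and -1.12 on galunisertib arrays. The galunisertib arrays were all lower but differed widely among themselves, and the fall of 1.84 ± 0.35 (adjusted p = 0.0128) rests on a spot at the edge of the array. *LTBP3* fell by 0.65 ± 0.09 and *INHBA*, the activin A subunit, by 0.55 ± 0.10, both in calls lost with median scaling. Of 11 genes tested in the list of ligands and related binding proteins, 5 fell and 0 rose, with a median of -0.01. The other TGFβ ligands, *TGFB2* at -0.01 ± 0.11 and *TGFB3* at 0.27 ± 0.16, and the remaining latency genes *LTBP1* at 0.16 ± 0.19 and *LTBP4* at 0.15 ± 0.08, had no call. The TGFβ superfamily genes *GDF11* (0.62 ± 0.17, adjusted p = 0.0545) and *INHBB* (1.00 ± 0.28, adjusted p = 0.0579) missed the threshold on the higher side.

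The receptors and the signalling SMADs gave almost no calls. Of 13 tested, *SMAD3* rose by 0.32 ± 0.08 (adjusted p = 0.0427), a call lost without any of 5 of the 6 arrays, and 0 fell. *TGFBR1*, the gene of the drug target, was at -0.03 ± 0.13 and *TGFBR2*, the type II receptor, at 0.50 ± 0.16 (adjusted p = 0.0859). *SMAD2* was at 0.20 ± 0.11, *SMAD4* at 0.03 ± 0.12, *SMAD1* at 0.08 ± 0.10 and *SMAD5* at -0.07 ± 1.14. The arrays compared were close for *SMAD5*, at 0.63 to 0.87 in controls and 0.59 to 0.79 with galunisertib. Its large SE thus comes from the other SNU-449 arrays in the fit. The BMP receptor genes *BMPR2* (-0.48 ± 0.13, adjusted p = 0.0545) and *BMPR1A* (-0.12 ± 0.12), the activin receptor genes *ACVR1* (-0.32 ± 0.26), *ACVR2A* (0.15 ± 0.28) and *ACVR2B* (0.65 ± 0.22, adjusted p = 0.102) and the co-receptor gene *TGFBR3* (-0.18 ± 0.47) did not pass. The *ID* genes, typical targets of BMP signalling, did not pass either (0 of 4), with *ID1* at -0.0048 ± 0.14.

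Known target genes of TGFβ included the 2 largest measured falls. *IL11*, an interleukin-6 family cytokine, gave 2.69, 2.77 and 2.96 on control arrays and -1.02, -3.09 and -2.59 on galunisertib arrays. It fell by 5.04 ± 0.45 (33.0-fold, adjusted p = 0.000347), on a spot at the edge of the array, and by 3.59 with normexp background correction. *FOXS1*, a forkhead transcription factor gene, gave 3.61, 4.01 and 3.91 without and -0.60, -0.93 and 0.19 with galunisertib, which is a fall of 4.29 ± 0.40 (19.6-fold, adjusted p = 0.000399). In neither gene did the groups come near each other.

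*JUNB*, which encodes an AP-1 subunit, gave -1.39, -1.62 and -1.12 on control arrays and -3.50, -3.08 and -4.04 on galunisertib arrays, and fell by 2.16 ± 0.25 (4.48-fold, adjusted p = 0.00106) with no overlap. It was well above background on 2 of 3 galunisertib arrays, and its change was -0.73 with normexp background correction. *CCN2*, also called CTGF, fell by 1.20 ± 0.12, while the metalloprotease *ADAM19* fell by 1.18 ± 0.21. Smaller falls were those of *PDGFB* (0.95), *TGFBI* (0.54) and *TNFRSF12A* (0.32, lost without any 1 of the 6 arrays). The calls of *ADAM19*, *TGFBI* and *TNFRSF12A* were lost with median scaling. Of 19 targets tested 9 fell and 0 rose, with a median of -0.32. Targets without a call included *PTHLH* (-0.25 ± 0.19), *KLF10* (-0.10 ± 0.24), *ANGPTL4* (0.43 ± 0.19) and *TSC22D1* (-0.04 ± 0.18).

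Outside these lists, the largest falls called well above background on all 6 arrays included *H1-9P*, a histone H1 pseudogene (3.98 ± 0.23), *DACT1*, a Wnt pathway modulator (2.99 ± 0.33), *LHX1*, a LIM homeobox gene (2.84 ± 0.22, edge spot), and *KLF7*, a Krüppel-like factor gene (2.21 ± 0.14). *UCN2*, which encodes urocortin 2 (2.31 ± 0.39), and *ATRAID* (2.18 ± 0.35) also fell, both on edge spots and with one galunisertib array well apart from the others. For the dynamin gene *DNM3* one probe fell by 2.24 and a dimmer second probe was at -0.08, so the gene is uncertain. A further 3 genes were above background on all control arrays and on no galunisertib array, each on edge spots. They were at least 10.1-fold lower for *AKAP8*, 6.75-fold for the serotonin receptor gene *HTR1D* and 4.69-fold for the adenylyl cyclase gene *ADCY7*. These bounds hold for the scaling used here. With normexp background correction the changes were -1.31, -1.10 and -0.73, and the *ADCY7* call was lost, as it was without 2 of the 6 arrays. The *HTR1D* call was lost with the authors' normalized values.

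Matrix genes did not move as a block. *COL1A1*, the α1 chain of type I collagen, gave 6.43, 6.89 and 6.75 on control arrays and 3.83, 3.98 and 4.42 with galunisertib, so that it fell by 2.61 ± 0.25 (6.11-fold, adjusted p = 0.000431) with no overlap. *COL1A2*, the α2 chain of the same collagen, was at 0.14 ± 0.11 (adjusted p = 0.465). *COL7A1*, the collagen of anchoring fibrils, fell by 2.13 ± 0.25 (adjusted p = 0.00109), and *COL4A3* fell on dim signals in a call lost without 4 of the 6 arrays. *COL13A1* and *COL6A1* rose by 0.47 and 0.30. Of 18 collagens 3 fell and 2 rose, and without scaling of the arrays 2 fell and 0 rose.

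Among 17 other matrix and cross-linking genes the lysyl oxidase gene *LOXL4* fell by 1.19 ± 0.14 (adjusted p = 0.00126), whereas *LOXL2* (0.45), *SPARC* (0.45) and *TNC* (0.75) rose. The rises were not stable, since each was lost without at least 3 of the 6 arrays and without scaling. *FN1* was well above background on 1 of 3 arrays in each group. Of 18 genes of the actin cytoskeleton 6 fell and 2 rose, as compared to 2.08% and 5.35% of all genes. The other 10 had no call, and the median was -0.33. The falls were those of *CDC42EP3* (1.41, edge spot), *PDLIM7* (0.89), *CALD1* (0.83), *ACTN1* (0.73), *TPM4* (0.60) and *TPM1* (0.50). The calls of *CALD1*, *TPM4* and *TPM1* were lost without at least 1 array, and these 3 and *ACTN1* were lost under a change of scaling. Only *CDC42EP3* and *PDLIM7* kept their calls in both respects. The smooth muscle actin gene *ACTA2* rose by 0.79 ± 0.11 and *MYLK*, the myosin light chain kinase gene, by 0.38 ± 0.08. Without scaling 4 genes of the list fell and 0 rose.

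**Figure D2:**
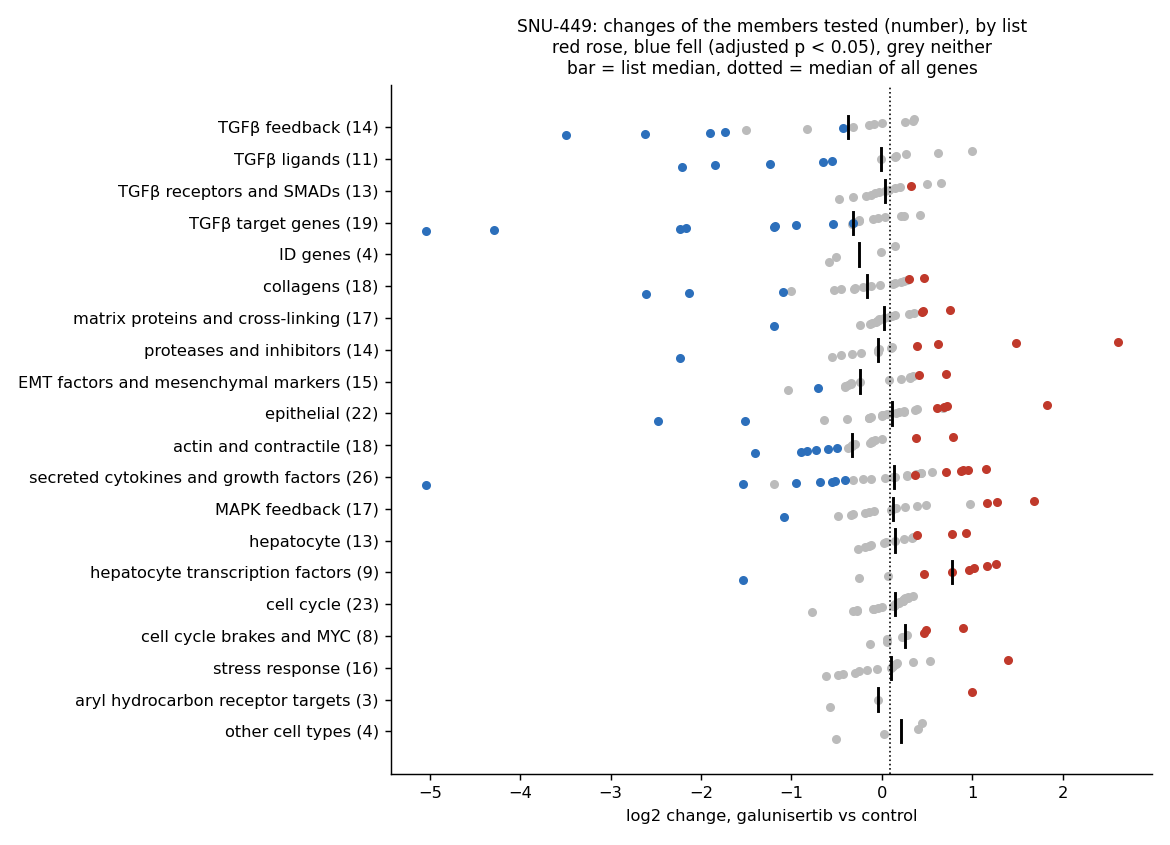
Log2 change with galunisertib of every tested member of 20 gene lists in SNU-449, 1 point a gene, with the number tested in brackets. Red points rose and blue points fell (adjusted p below 0.05), grey points did neither, the black bar is the median of the list and the dotted line the median of all genes (0.09). TGFβ feedback and target genes extend far to the left, and hepatocyte transcription factors have the highest median (0.77).

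Genes of plasminogen activators were higher with galunisertib. *PLAU*, which encodes urokinase, gave 5.20, 5.35 and 5.44 on control arrays and 6.75, 6.79 and 6.93 on galunisertib arrays, a rise of 1.49 ± 0.13 (2.81-fold, adjusted p = 0.000309). A second probe rose by 1.21. Non-overlapping groups with higher galunisertib arrays occurred in 20.6% of all genes tested, so that the size and the test carry the call. *PLAT*, the tissue plasminogen activator gene, rose by 0.62 ± 0.11 (adjusted p = 0.00899), a call lost under a change of scaling. *SERPINF1*, which encodes the secreted serpin PEDF, gave -1.56, -0.55 and -0.82 on control arrays and 1.74, 1.31 and 1.86 on galunisertib arrays. With 2.61 ± 0.26 (6.11-fold, adjusted p = 0.000545) it was the largest rise among the genes well above background on all 6 arrays. The metalloproteinase inhibitor gene *TIMP1* rose by 0.39, a call lost without 5 of the 6 arrays.

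The epithelial genes rose in part only. *CDH1*, which encodes E-cadherin, gave -1.98, -1.06 and -1.29 on control arrays and 0.52, -0.13 and 0.75 on galunisertib arrays, a rise of 1.82 ± 0.25 (3.54-fold, adjusted p = 0.00275) with no overlap. The junction genes *JUP*, plakoglobin (0.72 ± 0.11), and *CLDN1*, claudin-1 (0.69 ± 0.13), and the transcription factor gene *ELF3* (0.61 ± 0.15) also rose, though only *CDH1* kept its call under each scaling. All 4 calls were lost with only the 6 arrays of the comparison in the fit. Against this direction *KRT7*, keratin 7, fell from 7.98, 8.38 and 8.35 to 7.01, 6.97 and 6.20 (1.51 ± 0.22, adjusted p = 0.00347). The desmosomal gene *PKP2* fell by 2.47 ± 0.57 on an edge spot, a call lost without 5 of the 6 arrays. In all 4 of 22 epithelial genes rose and 2 fell, with a median of 0.11, close to the 0.09 of all genes. The summed signal of the list was 390 to 461 times the 75th percentile on control arrays and 222 to 277 times on galunisertib arrays, and was thus lower with galunisertib without overlap. *KRT7* was the brightest member and made up most of the sum on control arrays. The lower sum thus mostly repeats the fall of *KRT7* and does not describe the list as a whole. The plakin gene *PPL*, which is not in the list and binds keratins at desmosomes, rose by 1.43 ± 0.15 (adjusted p = 0.000608).

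Among mesenchymal genes few calls were made. Of 15 genes, *FOXC2* fell by 0.71 ± 0.17 and *S100A4* and *TWIST2* rose by 0.71 and 0.41, and none of these calls held under each scaling. *VIM* was at -0.34 ± 0.23 (adjusted p = 0.388), *ZEB1* at -0.24 ± 0.16 (adjusted p = 0.394), *CDH2* at -0.34 ± 0.09 (adjusted p = 0.0525), *SNAI1* at -0.40 ± 0.12 (adjusted p = 0.0675) and *SNAI2* at -0.41 ± 0.16 (adjusted p = 0.160). Under other processing choices *CDH2* fell in 9 of 23 alternatives, *SNAI1* in 3 and *SNAI2* in 1, while *VIM* and *ZEB1* passed in 0. Second probes were at -0.40 for *CDH2*, -0.57 for *ZEB1* and 0.09 for *TWIST2*. The median of the list was -0.24.

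Transcription factors of the hepatocyte lineage rose, while the secreted hepatocyte proteins mostly did not. *HLF*, a PAR bZIP factor gene of the liver, gave -0.50, -0.25 and -0.07 on control arrays and 1.08, 0.56 and 1.34 on galunisertib arrays, a rise of 1.26 ± 0.19 (2.40-fold, adjusted p = 0.00408). The pioneer factor gene *FOXA2* rose from 2.56, 2.31 and 2.40 to 3.57, 3.45 and 3.31 (1.02 ± 0.11, adjusted p = 0.000860). In both genes the groups were apart. *ONECUT1* (HNF6) rose by 0.97 ± 0.18, *CEBPB* by 0.77 ± 0.09 and *FOXA1* by 0.46 ± 0.12, and the *FOXA1* call was lost without 4 of the 6 arrays. *ONECUT2* fell by 1.54 ± 0.32 on an edge spot, and *CEBPA* (0.07 ± 0.30) and *NR5A2* (-0.25 ± 0.17) had no call.

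Thus 6 of the 9 tested hepatocyte factors rose and 1 fell, with a median of 0.77, and without scaling 4 rose and 1 fell. *HNF4A* was well above background on no array. Of 30 hepatocyte proteins and enzymes 13 were tested. *RBP4*, the plasma retinol carrier gene, rose by 0.93 ± 0.12 (adjusted p = 0.00188), and *APOH* and *AMBP* rose in calls lost without 5 and 4 of the 6 arrays. The summed signal of the list was 39.3 to 47.5 times the 75th percentile on control arrays and 45.7 to 50.3 times on galunisertib arrays, so the groups overlapped.

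Secreted factors had calls in both directions. The chemokine gene *CCL2* rose by 1.16 ± 0.10 (adjusted p = 0.000347) and *BMP4* by 0.87 ± 0.13, and the EGF receptor ligand genes *EREG* and *AREG* by 0.96 and 0.71. *IL11* and the BMP antagonist gene *GREM1* (1.54 ± 0.31) fell, followed by *PDGFB*, *LIF* (0.69), *VEGFA* (0.55), *WNT5B* (0.52) and *PDGFA* (0.41). *CXCL1* (0.90) and *FGF5* (0.37) completed the 6 of 26 that rose beside 7 that fell, and without scaling 1 rose and 7 fell. *CCL2*, *IL11* and *PDGFB* kept their calls under each scaling. Of these, *EREG*, *CXCL1*, *FGF5*, *GREM1*, *VEGFA* and *PDGFA* lost their call without at least 1 array.

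Feedback genes of the MAPK pathway were among the firmer rises. *SPRY1*, a Sprouty inhibitor of receptor tyrosine kinase signalling, gave -0.03, -0.43 and -0.34 on control arrays and 1.53, 1.47 and 1.24 on galunisertib arrays (1.68 ± 0.17, adjusted p = 0.000531), and a second probe rose by 1.89. The ERK phosphatase gene *DUSP5* rose by 1.28 ± 0.13 and *PHLDA1* by 1.16 ± 0.14, whereas the early response gene *IER3* fell by 1.08 ± 0.13. These 4 calls of 17 genes held under each scaling and without each array. *DUSP6* (0.39 ± 0.11, adjusted p = 0.0515), *ETV5* (0.49 ± 0.17) and *SPRY4* (-0.15 ± 0.20) had no call.

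The remaining rises among the 12 largest were those of *SOWAHD* (2.15 ± 0.24, edge spot), *COXFA4L3* (1.72 ± 0.15), the interferon-induced gene *IFIT2* (1.67 ± 0.15, second probe 1.13), *TBC1D2* (1.57 ± 0.34, edge spot and lost without 1 array), the serine palmitoyltransferase subunit gene *SPTLC3* (1.52 ± 0.21, other probes 1.15 and 0.94), the cAMP phosphodiesterase gene *PDE4B* (1.52 ± 0.21) and *SMIM5* (1.47 ± 0.22, edge spot). A further 3 genes were above background on all galunisertib arrays and on no control array. They were at least 3.95-fold higher for *CPA4*, a carboxypeptidase gene, 3.93-fold for *PAMR1* and 2.34-fold for *CAVIN2*, a caveolar coat gene. With normexp background correction the changes were 0.74, 0.65 and 0.42, and with the floor doubled that of *CAVIN2* was 0.30, so these sizes depend on how dim signals are treated.

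Of 23 genes of the cell cycle 0 passed limma's adjusted p in either direction, and their summed signal was 634 to 669 times the 75th percentile on control arrays and 663 to 703 times on galunisertib arrays. *MKI67* was at -0.27 ± 0.19, *CCND1* at 0.06 ± 0.09 and *MYC* at -0.13 ± 0.11. The inhibitor genes *CDKN1C*, *CDKN2C* and *CDKN2D* rose by 0.90, 0.47 and 0.49, but each call was lost without at least 4 of the 6 arrays. Of 16 stress genes 1 rose, *DDIT4*, an inhibitor of mTORC1, by 1.40 ± 0.27 (adjusted p = 0.0134). Of 3 aryl hydrocarbon receptor targets 1 rose, *CYP1B1*, by 1.00 ± 0.12 (adjusted p = 0.00126). Among all genes tested 5.35% rose. The medians of the 2 lists were 0.11 and -0.04 beside 0.09 for all genes, so these single calls do not describe the lists. Of 4 tested markers of blood and endothelial cells 0 passed.

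The same drug was given to the same line together with TGFβ on 6 other arrays, so the 2 log2 changes of a gene share no array. Both changes come from the same fit of the 12 SNU-449 arrays, which gives them the same estimate of the spread. The counts past P and adjusted p below are thus not an independent repeat. With TGFβ present, 3.81% of all genes tested passed 2-fold and P below 0.001 (1.78% higher and 2.04% lower), and 17.1% passed the adjusted p (9.72% higher and 7.35% lower). Of the 103 genes lower with galunisertib alone, 97 were also lower when it was added to TGFβ with 60 past 2-fold and P below 0.001 and 76 past the adjusted p. Of the 81 genes that were higher, 79 were again higher, with 54 and 66 past these thresholds. The median change of the 103 genes was -1.51 without and -1.25 with TGFβ, and that of the 81 genes 1.21 and 1.49. One gene passed in opposite directions, the ribosomal pseudogene *RPS16P5*, at -1.44 without and 1.48 with TGFβ on an edge spot, which was picked out after its values were seen.

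**Figure D3:**
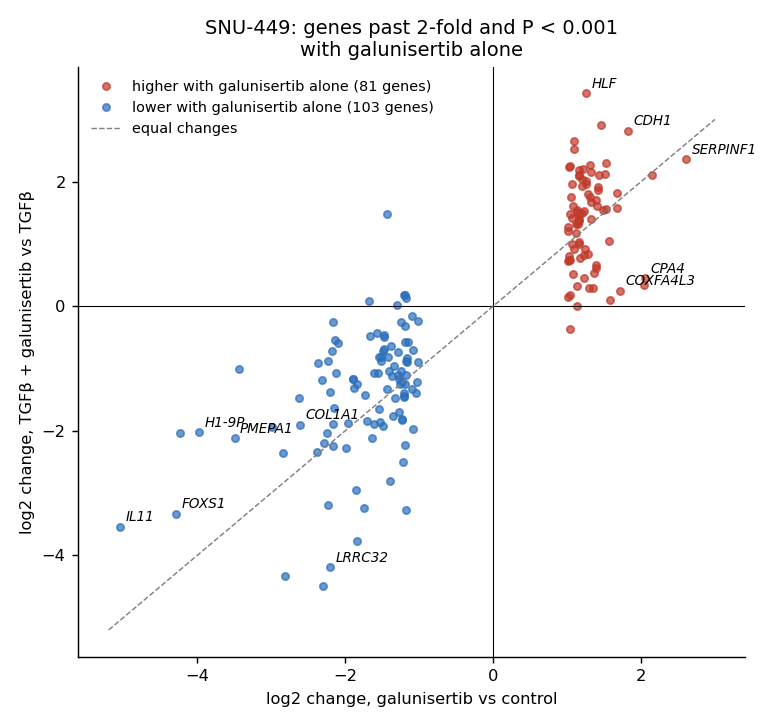
Log2 change of the 184 called genes in SNU-449 with galunisertib alone (horizontal axis) and with galunisertib added to TGFβ (vertical axis), 1 point a gene, with equal changes on the dashed line. Red points are the 81 genes higher and blue points the 103 genes lower with galunisertib alone, and 79 and 97 of them lie on the same side of 0 on the vertical axis.

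The size of the change differed for some genes between the settings without and with TGFβ. *HLF* changed by 1.26 without and by 3.42 with TGFβ, *ADAM19* by -1.18 and -3.27, *LRRC32* by -2.21 and -4.19 and *INHBA* by -0.55 and -2.25. *SERPINF1* (2.61 and 2.36) and *PLAU* (1.49 and 1.54) had similar values. *COXFA4L3* rose by 1.72 alone and was at 0.25 with TGFβ (adjusted p = 0.293), and *CPA4*, *PAMR1* and *CAVIN2* were at 0.45, 0.34 and 0.29 (adjusted p = 0.103, 0.140 and 0.0523). Falls not passed with TGFβ were those of *UCN2* (-1.18, adjusted p = 0.0613) and *ATRAID* (-0.71, adjusted p = 0.208). The difference between the contrasts was not tested for any of these genes. In the feedback list 11 of 14 genes fell with TGFβ present, as compared to 5 without, and in the target list 12 of 19 as compared to 9.

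Levels in all 4 conditions show where galunisertib alone set the lowest or highest signal. *PMEPA1* had a mean of 6.13 ± 0.07 in controls, 2.63 ± 0.88 with galunisertib, 7.52 ± 0.07 with TGFβ and 5.40 ± 0.47 with both (SD, n = 3). *SMAD7* followed the same order, with 3.12 ± 0.05, 1.23 ± 0.19, 3.78 ± 0.05 and 2.61 ± 0.25. *SERPINF1* ran the other way, with -0.98 ± 0.52, 1.64 ± 0.29, -2.20 ± 0.14 and 0.16 ± 0.33. *PLAU* gave 5.33 ± 0.12, 6.82 ± 0.09, 4.19 ± 0.03 and 5.74 ± 0.26. In these 4 genes no array of cells with galunisertib alone overlapped with an array of any other group.

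**Figure D4:**
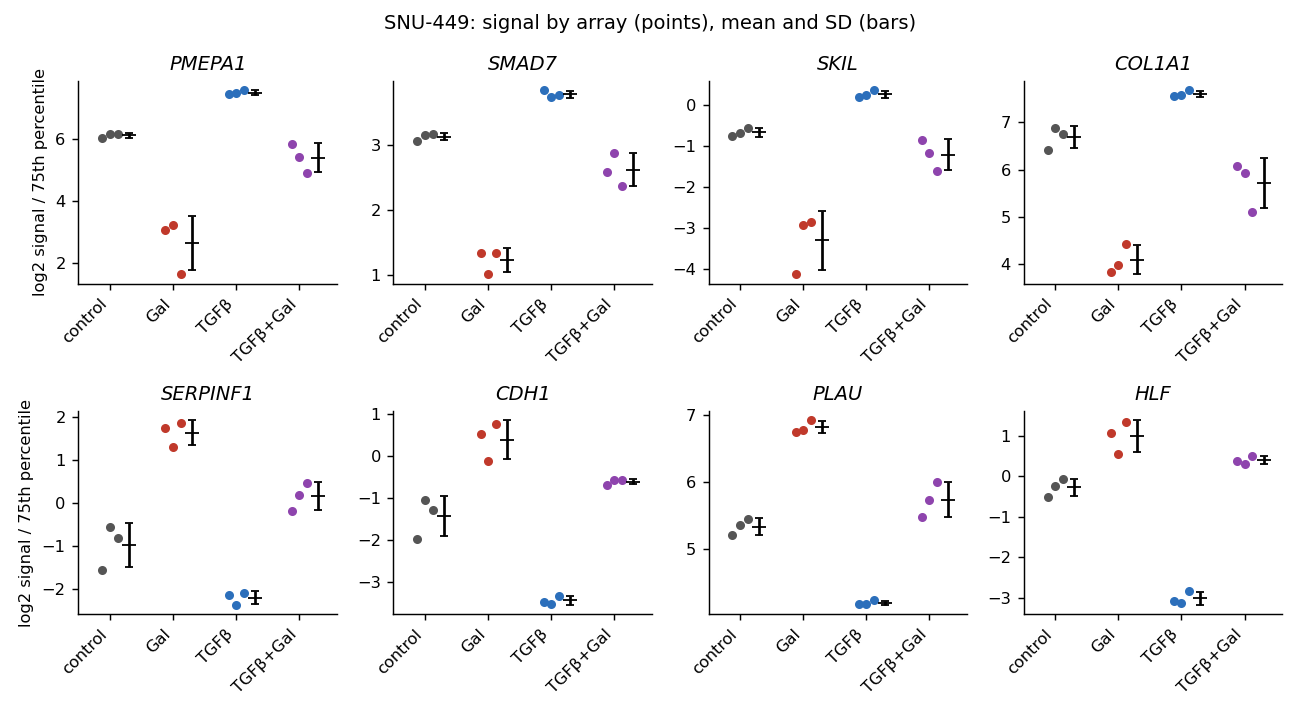
Log2 signal relative to the 75th percentile in SNU-449 for 8 genes in control cells, with galunisertib (Gal), TGFβ or both. Points are arrays and bars are the mean with SD (n = 3), and each panel has its own scale. For *PMEPA1*, *SMAD7*, *SKIL* and *COL1A1* the galunisertib arrays are the lowest, and for *SERPINF1*, *PLAU* and *HLF* they are the highest.

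PLC/PRF/5 cells received the same dose for the same time, and limma's interaction contrast over the 24 arrays tested how far the responses of the lines differed. Of the 103 genes lower in SNU-449, 79 had an interaction past 2-fold and P below 0.001, and of the 81 higher genes, 54, beside 1.54% of all 17902 genes tested (0.821% with a higher and 0.721% with a lower change in SNU-449). These counts use the same SNU-449 arrays that chose the genes and are given as a description. For some genes PLC/PRF/5 gave no measurable level. *PMEPA1*, *COL1A1*, *FOXS1* and *DACT1* were well above background on none of the 6 PLC/PRF/5 arrays. Signals set to the floor show no spread between arrays, so the interaction P of such genes can be too small. Others were measured in both lines, as *SERPINF1*, for which the SNU-449 change was 2.61 ± 0.26 and the PLC/PRF/5 change -0.01 ± 0.20, and *CDH1*, at 1.82 ± 0.25 and -0.35 ± 0.20. For *SKIL* the changes were -2.62 ± 0.30 and -0.63 ± 0.24 and for *SMAD7* -1.90 and -0.44. *SPRY1* and *DUSP5* were higher with galunisertib in PLC/PRF/5 too, by 0.75 and 1.39, and the *DUSP5* difference between the lines was -0.11 (adjusted p = 0.846).

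**Figure D5:**
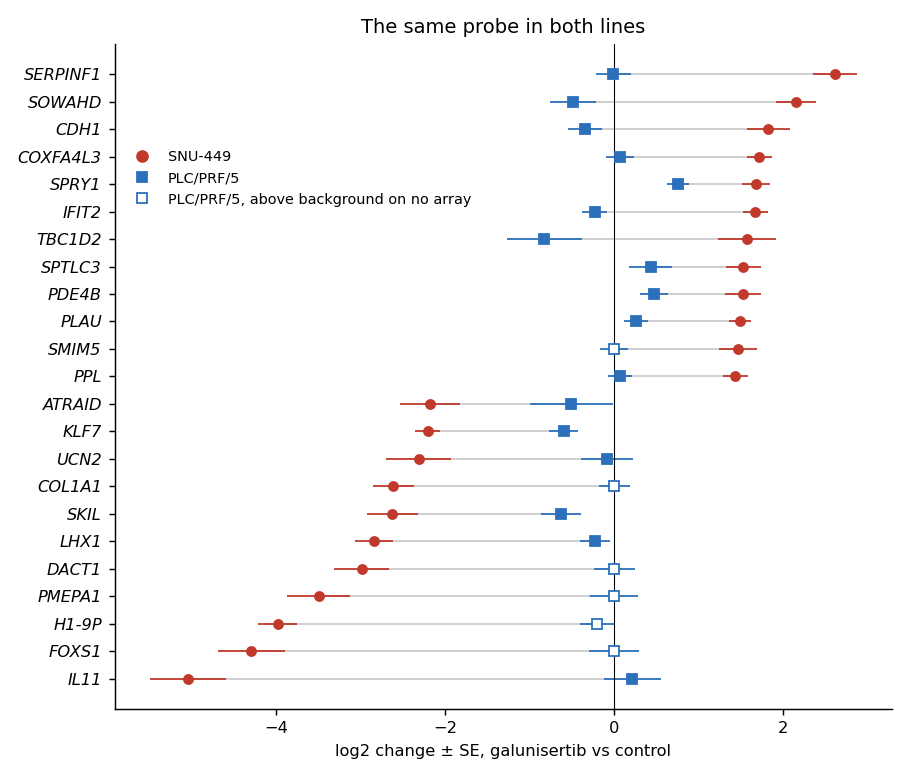
Log2 change with galunisertib, with its SE, in SNU-449 (red circles) and PLC/PRF/5 (blue squares) for 23 genes measured with the same probe. Open squares are genes well above background on none of the 6 PLC/PRF/5 arrays. The SNU-449 changes lie at -5.04 to -2.18 and at 1.43 to 2.61, and the PLC/PRF/5 changes lie between -0.83 and 0.75.

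Spots in the outer rows and columns of the array were more frequent among the falls than among all genes, with 30.1% of the 103 lower genes and 21.0% of the 81 higher genes as compared to 18.2% of all genes tested. With edge spots left out, 140 genes passed 2-fold and P below 0.001 (56 higher, 84 lower). The adjusted p was then passed by 840 genes (517 higher, 323 lower). Genes measured only on edge spots drop out of these counts. The part of edge spots in the result was not tested for single genes, and they are named as edge spots above. Of the called genes 39 had further tested probes, which changed in the same direction in 38 genes and by more than 2-fold in 24.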

How the data were processed

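RNA of 24 cultures was hybridised to one-colour Agilent arrays of 62976 spots. The authors deposited scanner output of Agilent Feature Extraction 10.7.3.1 (submitters' processing notes), from which the background-subtracted intensity was used. The log2 table that was deposited beside it, described as normalized in GeneSpring, served as an alternative. Each array was divided by its 75th percentile, values below a floor of 5.70% of that percentile were set to it, and log2 was taken. Control spots and spots marked as outliers by the software were left out. Of 58201 probes, 31104 were named through RefSeq and 10719 through LNCipedia, and 16378 were unnamed. Each gene was represented by its brightest probe, and genes not well above background on all arrays of at least 1 group were left out.

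The 12 SNU-449 arrays were fitted in limma 3.58.1 (R 4.3.3), and all 24 for the difference between lines. SE is that of the moderated fit. Plots used Python 3.11.15. The named genes were the markers, the 12 largest measured rises and falls past both thresholds whose groups did not overlap, the 3 largest bounds each way, and list members past the adjusted p. Results for a few named genes are not reported here. List members without a call were named after their values were seen, except TGFβ ligands, receptors and SMADs. Members and lists were chosen with earlier results of these data known. For normexp background correction the median spot signal stood in for the mean. Promoters were RefSeq sequences on GRCh38.p14.

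Same-numbered control and galunisertib arrays did not deviate together (correlations -0.03, 0.08 and -0.01), whereas those with TGFβ did (0.10 to 0.27). On simulated data the fit recovered 90.9%, 95.5% and 94.0% of genes changed by 1.5, 2 and 3 on the log2 scale, with 5 false calls among 16101 genes. The alternatives covered background, scaling, filter, probe choice, samples in the fit, the replicate block and leaving out each array.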

Additional observations from a re-analysis of the deposited data

Results flagged for a closer look

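The change with galunisertib differed between SNU-449 and PLC/PRF/5 for 42 of the named genes in limma's interaction test, with adjusted p between 3.7e-07 and 0.0246. All 42 differences were above 2-fold. Of all 17902 genes tested, 1.54% had a difference past 2-fold and P below 0.001, and the share past the adjusted p is not given. Named genes were mostly chosen by their SNU-449 change, so the count is a description. Values are the log2 change in SNU-449 minus that in PLC/PRF/5, and the SNU-449 arrays that chose the genes also enter the test.

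Among genes measured in PLC/PRF/5 on at least 1 array, the TGFβ pathway and target genes differed by -5.26 for *IL11*, -2.63 for *JUNB*, -2.11 for *TGFB1*, -2.0 for *SKIL*, -1.67 for *FSTL3*, -1.60 for *CCN2*, -1.46 for *SMAD7* and -1.29 for *ADAM19*. Other genes with a lower change in SNU-449 were *AKAP8* (-3.68), *HTR1D* (-2.88), *LHX1* (-2.61), *UCN2* (-2.23), *COL7A1* (-2.14), *IER3* (-1.77), *KLF7* (-1.61), *KRT7* (-1.60), *ONECUT2* (-1.37) and *LOXL4* (-1.16). *IER3* rose by 0.69 in PLC/PRF/5 and fell by 1.08 in SNU-449.

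A higher change in SNU-449 was found for *SOWAHD* (2.64), *SERPINF1* (2.62), *CDH1* (2.17), *IFIT2* (1.90), *COXFA4L3* (1.65), *PPL* (1.36), *PLAU* (1.23), *PDE4B* (1.04) and *HLF* (1.01).

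The other genes were above background on none of the 6 PLC/PRF/5 arrays, so the value mostly repeats the SNU-449 change. Signals set to the floor show no spread between arrays, so the adjusted p of such genes can be too small. The smallest adjusted p, 3.7e-07, was that of *CAVIN2*, *PAMR1* and *H1-9P*, which belong to this group. They were *FOXS1* (-4.29), *H1-9P* (-3.77), *PMEPA1* (-3.50), *DACT1* (-2.99), *COL1A1* (-2.61), *ADCY7* (-2.28), *LRRC32* (-2.21), *GREM1* (-1.54), *CDC42EP3* (-1.41), *LTBP2* (-1.27), *CCL2* (1.16), *CAVIN2* (1.30), *SMIM5* (1.47), *CPA4* (2.05) and *PAMR1* (2.05).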

How the results depend on the processing

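Of the 184 genes past 2-fold and P below 0.001 with galunisertib alone (81 higher, 103 lower), normexp background correction left 120 (29 higher, 91 lower), a fit of all 24 arrays gave 277 and the methods' t-test without its variance model 68. The split moved to 50 higher and 155 lower without scaling and to 66 and 125 with the percentile over detected probes. Past the adjusted p, 1196 genes became 334 without scaling, 238 with median scaling, 219 with the contrast's own arrays, 2541 with all 24 arrays and 87 by that t-test. Leaving out 1 array gave 175 to 237 and 641 to 1607 genes by the 2 criteria, the last without galunisertib replicate 2. With the replicate number as a block 174 and 949 genes passed. With TGFβ present 614 genes became 375 with normexp and 383 by the t-test, 577 with the replicate block, and 529 to 601 without 1 array. The difference between lines (276 genes) gave 155 with normexp, 137 with all arrays above background, 275 with the replicate block and 252 to 358 without 1 array. Of 101 named genes that passed, 67 passed without each array, 17 under every alternative that gave them a value, and no call reversed. The causes were not tested.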
